A study of Mus musculus with 9 samples.

Results

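Regulatory T cells restrain other T cells, and a small set of genes marks them. 6 such genes, Foxp3, Ikzf2, Ikzf4, Izumo1r, Lrrc32 and Nrp1, were followed in RNA from CD4+ T cells of the inflamed colon, with and without CD160 in the T cells. Each was found by its own symbol, as the rows FOXP3, IKZF2, IKZF4, IZUMO1R, LRRC32 and NRP1, which are 6 of the 23415 rows of the deposited table. Nrp is an older synonym of Nrp1, but the row of that name matched a separate gene of the RefSeq annotation and was not taken for it. No measured value entered the choice, although the genes were picked with earlier results of these data known.

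Foxp3 encodes the forkhead factor that fixes the regulatory T cell state. Ikzf2 (Helios) and Ikzf4 (Eos) are zinc finger factors of the Ikaros family that work with it, Izumo1r encodes the surface protein called folate receptor 4 on T cells, Lrrc32 encodes GARP, which holds latent TGF-beta at the cell surface, and Nrp1 encodes neuropilin-1, a receptor for semaphorins and VEGF. In mice, Helios and neuropilin-1 are often used to mark regulatory cells that arose in the thymus, as against those induced outside it. In the transfer model used here, regulatory T cells are largely left behind at the start because only naive cells are given, and the lack of regulation lets colitis develop; some transferred cells can later switch on Foxp3 in the gut.

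The 4 knockout libraries came from CD160 knockout donor cells and the 5 control libraries from wild-type littermate donor cells. In both groups the donor cells were naive CD4+ T cells sorted as CD25- and CD45RBhigh, the recipients were Rag1-/- mice, which have no T or B cells of their own, and 5000 CD4+ cells per sample were sorted from the colon when disease was at its height. The labels give no age, strain, sex or number of recipients, and do not say how Cd160 was disrupted or whether each library is a different mouse, so every p-value reflects only how much these libraries vary. Values are TPM (transcript abundances scaled to one fixed total per library), which are corrected for gene length and can be compared between genes. The depth behind them is unknown.

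Control replicate 1 stood apart from the other libraries. It had 7308 genes at 1 TPM or more, against 11088 to 11711 in the other 8, and all 6 genes had their lowest value there. With this library, the median difference of all tested genes was 0.46 on the log2 scale, and without it the median was -0.014, so results are given with and without it. The targeted gene, Cd160, was between 5.44 and 18.8 TPM in the knockout libraries and between 31.8 and 212.4 TPM in the controls. Its log2(TPM + 1) difference was -2.79 over 9 libraries (adjusted p 0.572 in limma). Without control replicate 1 it was -3.11 (adjusted p 0.113 in limma). Even the targeted gene was therefore not called at an adjusted p under 0.05, which limits what the absence of a call can show for other genes. The labelled cell type was present: all 8 T cell markers were above 0 in every library and summed to 3788 to 4930 TPM in knockout libraries, 4659 to 5419 TPM in control replicates 2 to 5 and 1724 TPM in control replicate 1.

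The start regions of Foxp3, Izumo1r and Nrp1 are shown because none was available for the other members. Each stretch runs 5′ to 3′ on the gene's strand, from 250 bases before the annotated start to 50 bases after it, in the RefSeq annotation of GRCm38.p6. Capitals mark matches to 3 short motifs searched on both strands: a forkhead core (TGTTTAC), a RUNX core (TGTGGT) and a STAT core (TTCNNNGAA). No 2 matches overlapped.
Foxp3, first start, chrX:7579426-7579725, plus strand: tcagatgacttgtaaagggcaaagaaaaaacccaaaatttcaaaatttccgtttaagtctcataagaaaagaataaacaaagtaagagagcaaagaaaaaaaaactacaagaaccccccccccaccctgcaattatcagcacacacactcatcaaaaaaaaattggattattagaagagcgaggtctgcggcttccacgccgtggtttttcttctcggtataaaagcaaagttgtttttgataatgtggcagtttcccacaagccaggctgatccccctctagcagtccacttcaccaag
Foxp3, second start, chrX:7580233-7580532, plus strand: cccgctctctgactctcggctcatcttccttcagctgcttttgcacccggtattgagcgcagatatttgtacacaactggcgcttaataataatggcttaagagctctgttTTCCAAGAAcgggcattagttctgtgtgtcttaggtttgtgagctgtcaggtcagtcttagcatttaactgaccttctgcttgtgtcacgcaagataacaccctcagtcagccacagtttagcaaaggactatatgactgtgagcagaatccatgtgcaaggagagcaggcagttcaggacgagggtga
Izumo1r, chr9:14903718-14904017, minus strand: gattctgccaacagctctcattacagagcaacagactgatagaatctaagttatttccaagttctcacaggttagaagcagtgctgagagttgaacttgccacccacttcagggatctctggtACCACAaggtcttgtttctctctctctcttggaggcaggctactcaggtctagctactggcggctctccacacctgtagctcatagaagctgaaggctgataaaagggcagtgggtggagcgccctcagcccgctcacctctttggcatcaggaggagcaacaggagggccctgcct
Nrp1, chr8:128358823-128359122, plus strand: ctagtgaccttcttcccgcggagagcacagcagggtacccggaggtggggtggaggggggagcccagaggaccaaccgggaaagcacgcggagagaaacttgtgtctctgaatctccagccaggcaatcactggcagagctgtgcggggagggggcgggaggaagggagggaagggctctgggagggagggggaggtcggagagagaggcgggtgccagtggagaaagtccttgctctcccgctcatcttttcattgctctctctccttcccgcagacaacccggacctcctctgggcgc
The second Foxp3 start region held 1 STAT match, TTCCAAGAA, and 8.3% of 32851 start regions of the same length in the annotation held at least 1. The Izumo1r region held 1 RUNX match, ACCACA on this strand, as did 16.8% of all regions. The forkhead core, found in 3.65% of regions, was in none of these 4. A match of letters does not show that a factor binds. The regions differed in composition: GC content was 40.7% and 47.7% at the 2 Foxp3 starts, 52.3% at Izumo1r and 64.0% at Nrp1.

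Izumo1r, Nrp1 and Foxp3 were the more abundant of the 6 genes, and Ikzf4, Ikzf2 and Lrrc32 the less abundant. Over the 8 libraries without control replicate 1, Izumo1r averaged 28.4 ± 6.39 TPM, Nrp1 15.0 ± 9.82 TPM and Foxp3 10.9 ± 2.96 TPM (SD, n = 8). Ikzf4 averaged 2.98 ± 1.23 TPM, Ikzf2 2.65 ± 0.493 TPM and Lrrc32 1.11 ± 0.84 TPM (SD, n = 8). The step from Foxp3 to Ikzf4 was the only step in this order at which the ranges of neighbouring genes did not overlap, and it had the same direction in 9 of 9 libraries. Izumo1r was above Nrp1 in 8 of 9 libraries, Nrp1 above Foxp3 in 6 of 9, Ikzf4 above Ikzf2 in 5 of 9 and Ikzf2 above Lrrc32 in 8 of 9. Nrp1 had the widest spread relative to its mean of the first 3: it exceeded Izumo1r in knockout replicate 3 and lay below Ikzf4 in control replicate 5.

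**Figure D1:**
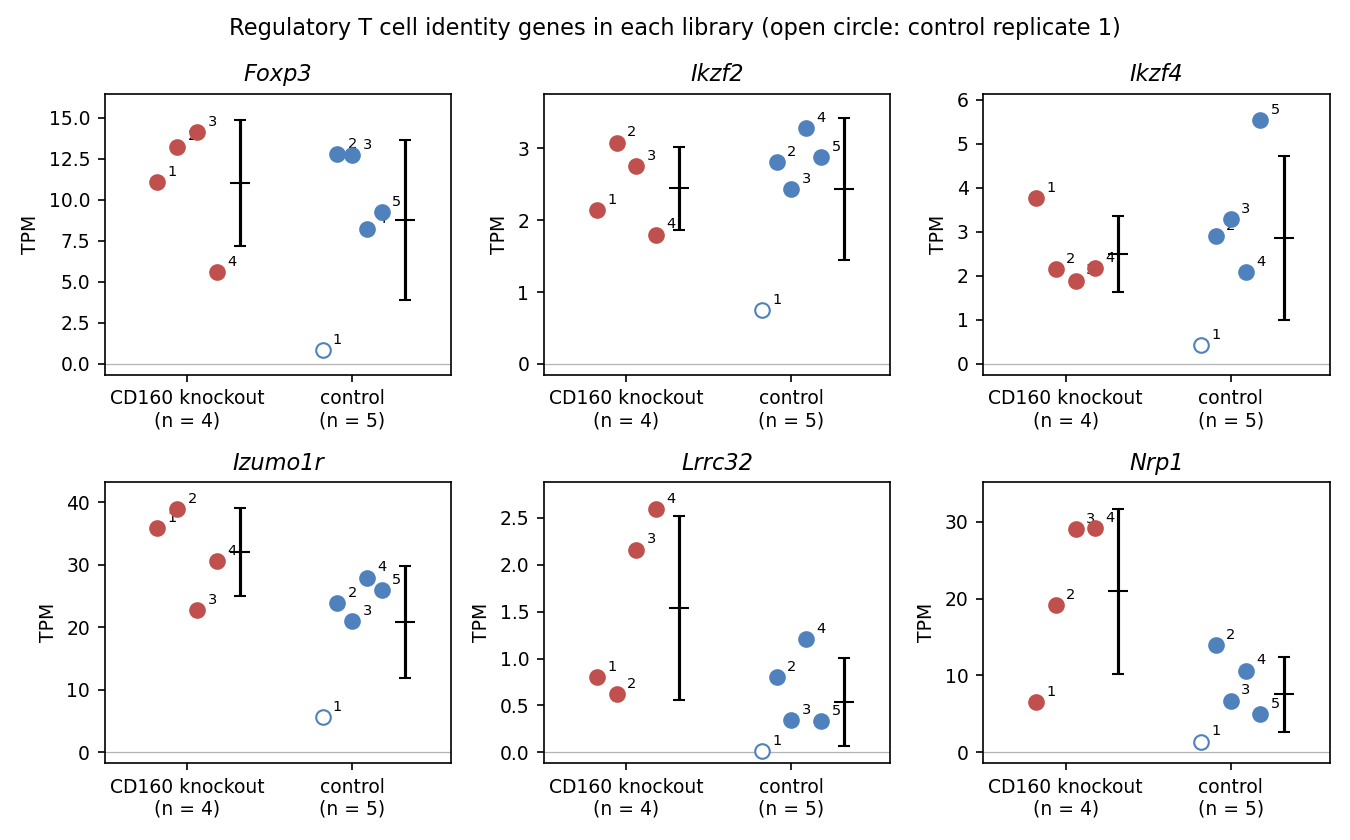
TPM of the 6 genes in each library, with the replicate number beside each point; bars give the mean and SD of each group (4 knockout and 5 control libraries). Control replicate 1, drawn open, is the lowest point in all 6 panels, and the groups overlap in every panel.

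Foxp3, the defining factor (chromosome X, 7579676 to 7595243, GRCm38), did not differ detectably between T cells with and without CD160. It read 11.1, 13.2, 14.1 and 5.59 TPM across knockout replicates 1 to 4, against 0.86, 12.8, 12.7, 8.2 and 9.26 TPM across control replicates 1 to 5. The groups overlapped, and knockout replicate 4 lay below every control library except replicate 1. Group means were 11.02 ± 3.84 TPM (SD, n = 4) in knockouts and 8.77 ± 4.87 TPM (SD, n = 5) in controls, or 10.7 ± 2.37 TPM (SD, n = 4) in controls without replicate 1. By limma, knockout minus control came to 0.51 on the log2 scale (SE 0.61, adjusted p 0.745). Without control replicate 1 it was -0.014 (SE 0.28, adjusted p 0.991). The 95% interval of that difference ran from -0.64 to 0.62 on the log2(TPM + 1) scale, so changes in either direction of up to about 1.5-fold on that scale were not resolved. The two-sided exact permutation test gave p = 0.587 over 9 libraries and p = 0.971 over 8. In bulk RNA, fewer Foxp3-expressing cells and less Foxp3 RNA per cell cannot be told apart.

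Set against a T cell transcript, Foxp3 also overlapped between groups. As a percentage of Cd4 TPM it was 3.50, 2.78, 3.26 and 1.47% in knockout replicates 1 to 4. It was 0.258% in control replicate 1 and between 1.85 and 3.17% in control replicates 2 to 5. Over 9 libraries the two-sided exact permutation p of this ratio was 0.349, and over 8 it was 0.629. In control replicate 1, Foxp3 was thus low relative to Cd4 as well as in TPM, and the rank of Foxp3 in that library was 7715 of 23415 genes, within the range of 5526 to 8228 in the other 8.

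Of the Ikaros partners, Ikzf2 (chromosome 1, 69531207 to 69687351) read 2.14, 3.08, 2.75 and 1.8 TPM across knockout replicates 1 to 4, against 0.75, 2.81, 2.43, 3.28 and 2.88 TPM across control replicates 1 to 5. The groups overlapped, with the 2 lowest values outside control replicate 1 in knockout replicates 4 and 1. The log2 difference was 0.054 (SE 0.31, adjusted p 0.919 in limma), and -0.17 (SE 0.17, adjusted p 0.74) without control replicate 1. The 95% interval of the latter was -0.55 to 0.21, and with all 9 libraries the sign turned under median-of-ratios (-0.34) and quantile scaling (-0.44).

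Ikzf4 (chromosome 10, 128630839 to 128669671) read 3.77, 2.16, 1.89 and 2.18 TPM across knockout replicates 1 to 4, against 0.43, 2.91, 3.29, 2.09 and 5.54 TPM across control replicates 1 to 5. The highest knockout value lay inside the control range, and 3 of 4 knockout values lay close together near 2 TPM. The log2 difference was -0.0057 (SE 0.41, adjusted p 0.993 in limma), and -0.32 (SE 0.26, adjusted p 0.666) without control replicate 1. The 95% interval of the latter was -0.91 to 0.26.

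Izumo1r, the most abundant of the 6 (chromosome 9, 14885814 to 14903951), had higher knockout values but was not called. It read 35.9, 39.0, 22.7 and 30.7 TPM across knockout replicates 1 to 4, against 5.64, 23.9, 21.0, 28.0 and 25.9 TPM across control replicates 1 to 5. Knockout replicates 1, 2 and 4 lay above all controls, while knockout replicate 3 lay inside the control range. Means were 32.1 ± 7.09 TPM (SD, n = 4) in knockouts and 20.9 ± 8.91 TPM (SD, n = 5) in controls, or 24.7 ± 2.99 TPM (SD, n = 4) in controls without replicate 1. The log2 difference was 0.73 (SE 0.50, adjusted p 0.745 in limma), and 0.34 (SE 0.17, adjusted p 0.463) without control replicate 1. The two-sided exact permutation p was 0.0794 over 9 libraries and 0.143 over 8.

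Relative to the summed TPM of the 8 T cell markers, Izumo1r was 0.861, 0.79, 0.537 and 0.81% in knockout replicates 1 to 4. It was 0.327, 0.513, 0.395, 0.55 and 0.478% in control replicates 1 to 5. The groups still overlapped through knockout replicate 3. The two-sided exact permutation p of this ratio was 0.0317 over 9 libraries and 0.0571 over 8. It was 1 of 12 such ratios, 2 for each gene, chosen after the data had been seen, and the p-values are unadjusted. With Cd4 alone as the reference, the exact permutation p was 0.0635 and 0.114.

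Lrrc32, the GARP gene (chromosome 7, 98489305 to 98501831), was near the limit of what was measured. It read 0.8, 0.62, 2.16 and 2.59 TPM across knockout replicates 1 to 4, against 0.01, 0.8, 0.34, 1.21 and 0.33 TPM across control replicates 1 to 5. The high knockout mean came from replicates 3 and 4, and the other 2 knockout libraries lay inside the control range. Because it reached 1 TPM in 3 libraries only, it did not pass the filter of 1 TPM in at least 4 libraries and was left out of the limma fit. Its mean log2(TPM + 1) was 0.69 higher in knockouts, with a two-sided exact permutation p of 0.127. Over 8 libraries the difference was 0.56 and the exact permutation p was 0.229.

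Nrp1 (chromosome 8, 128358591 to 128505476) had the largest difference of the 6 genes. It read 6.49, 19.1, 29.0 and 29.1 TPM across knockout replicates 1 to 4, against 1.39, 14.0, 6.73, 10.6 and 4.95 TPM across control replicates 1 to 5. Knockout replicates 2, 3 and 4 lay above all controls, but knockout replicate 1 lay below 3 of the 5 controls. Means were 20.9 ± 10.7 TPM (SD, n = 4) in knockouts and 7.53 ± 4.9 TPM (SD, n = 5) in controls, or 9.07 ± 4.03 TPM (SD, n = 4) without control replicate 1. The log2 difference was 1.42 (SE 0.62, unadjusted p 0.0428, adjusted p 0.745 in limma). Without control replicate 1 it was 1.02 (SE 0.47, unadjusted p 0.0583, adjusted p 0.41 in limma). The two-sided exact permutation p was 0.0794 over 9 libraries and 0.143 over 8.

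Transcripts of other cell types moved with Nrp1. The 10 macrophage markers, all above 0 in every library, summed to 10499, 8518, 13705 and 15231 TPM across knockout replicates 1 to 4, against 1003, 9409, 2545, 5393 and 2350 TPM across control replicates 1 to 5. Knockout replicate 2 lay below control replicate 2, and every other knockout sum lay above every control sum, with Lyz2, a lysozyme of myeloid cells, the most abundant marker at 541.3 to 8176 TPM. The mean log2(TPM + 1) of the 10 markers was 8.39 in knockouts and 6.51 in controls, with a two-sided exact permutation p of 0.0476, and p = 0.0857 without control replicate 1. The 8 stroma markers, led by the matrix proteoglycan gene Dcn, summed to 48.3, 179.5, 234.7 and 376.3 TPM across knockout replicates 1 to 4, against 4.27, 113.8, 63.0, 138.8 and 58.5 TPM across control replicates 1 to 5. Of all 9 libraries, the 3 with the highest Nrp1 were the 3 with the highest stroma sums, and the library with the lowest Nrp1 was lowest in both lists. Knockout replicate 1 had a high macrophage sum, of which Lyz2 gave 8176 TPM, a low stroma sum and low Nrp1. Its mean log2(TPM + 1) of the 10 macrophage markers, 7.45, lay below those of control replicates 2 (7.89) and 4 (7.52).

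Over the same 8 libraries, a model that also held the mean macrophage marker level gave Nrp1 a difference of -0.31 (SE 0.27, adjusted p 0.702 in limma), opposite in sign to the difference without the covariate. The marker level was itself higher in knockouts on average, as given above, and the part of other cells in the Nrp1 difference was not tested further. In the same fit the differences were 0.098 for Foxp3, -0.22 for Ikzf2, 0.25 for Ikzf4 and 0.49 for Izumo1r, each with a 95% interval that includes 0, and the median of all tested genes was 0.079. Ikzf4 was negative without the covariate and positive with it.

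**Figure D2:**
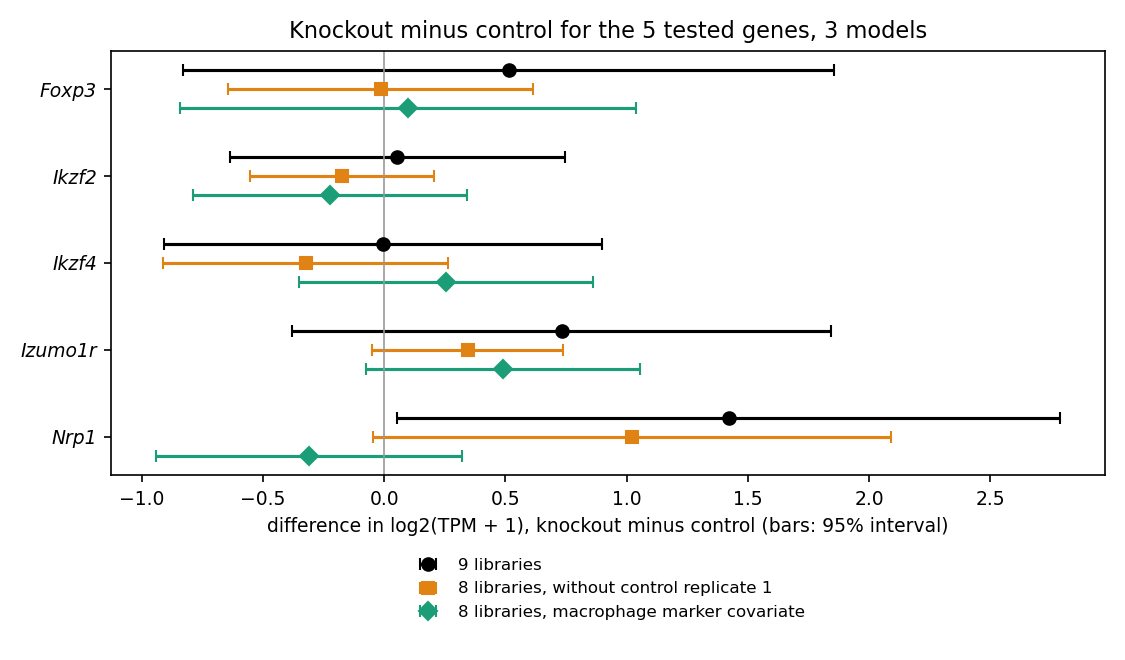
Knockout minus control difference in log2(TPM + 1) for the 5 tested genes, with 95% intervals, from 9 libraries, from 8 libraries without control replicate 1, and from those 8 in a model that also holds the mean macrophage marker level. Nrp1 lies at 1.42, 1.02 and -0.31 in the 3 models, its first interval alone leaving out 0; the other 4 genes have intervals that span 0 in all 3.

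**Figure D3:**
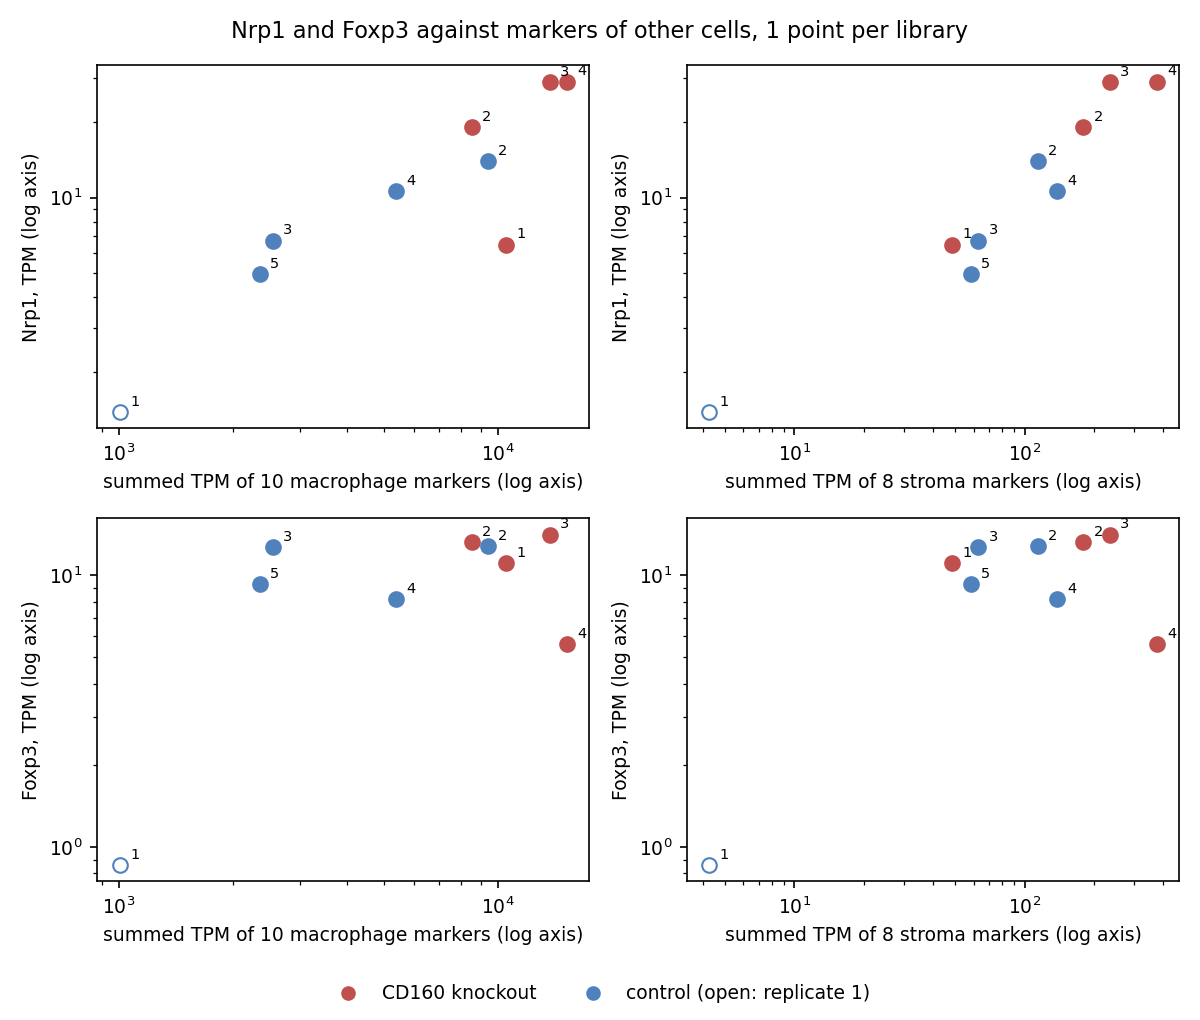
TPM of Nrp1 (top) and Foxp3 (bottom) in each library against the summed TPM of 10 macrophage markers (left) and 8 stroma markers (right), on log axes, with replicate numbers. Nrp1 is highest in knockout replicates 3 and 4, which also have the highest marker sums, whereas Foxp3 in control replicates 2 and 3 is 12.8 and 12.7 TPM at macrophage sums of 9409 and 2545 TPM.

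Foxp3 was set beside the same markers. Knockout replicate 4, with the highest macrophage and stroma sums of the 9 libraries, had the lowest Foxp3 outside control replicate 1. Control replicates 2 and 3 had nearly equal Foxp3 at very different macrophage sums. Lrrc32, which endothelial cells and platelets also express, was highest in the 2 libraries with the highest stroma sums. Endothelial markers summed to 30.2 to 53.2 TPM in knockouts and 1.52 to 34.5 TPM in controls, of which Pecam1, also made by leukocytes, gave up to 26.5 TPM. Without control replicate 1, 8 of the 10 endothelial markers had a higher knockout mean, among them Eng at 17.2 against 7.17 TPM, Esam at 1.38 against 0.535 TPM and Cldn5 at 1.34 against 0.63 TPM. The other two were Pecam1, at 21.2 against 22.02 TPM, and Cdh5, which was listed at 0 in 4 of 9 libraries and averaged 0.0325 against 0.0375 TPM. The Cldn5 knockout mean came mostly from knockout replicate 3, at 4.62 TPM, with at most 0.58 TPM in the other knockouts and 1.88 TPM in control replicate 3. Esam was 0.3 and 0.92 TPM in knockout replicates 1 and 4, below the 0.95 TPM of control replicate 5. The mean log2(TPM + 1) of the endothelial list overlapped between groups, with a two-sided exact permutation p of 0.127 over 9 libraries and 0.229 over 8. In the platelet list, Ppbp and Gp9 were each listed at 0 in 4 of 9 libraries, while Pf4 reached 1004 TPM. Dendritic cell markers summed to 92.2 to 124.8 TPM in knockouts and 10.5 to 80.9 TPM in controls, with Itgax the most abundant. Their mean log2(TPM + 1) overlapped between groups, with a two-sided exact permutation p of 0.0952 over 9 libraries and 0.171 over 8. Without control replicate 1, 6 of these 8 genes had a higher knockout mean. Xcr1 (4.84 against 6.73 TPM) and Ccr9 (19.7 against 21.2 TPM) had a lower one. B cell markers summed to at most 12.9 TPM, with Ms4a1 at 0 in all 9 libraries. Colon epithelium markers summed to 71.2 to 119.8 TPM in knockouts and 13.2 to 124.9 TPM in controls, and NK cell markers to 4.85 to 7.88 TPM and 3.09 to 41.8 TPM.

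Across the 6 genes, 5 passed the filter and 0 of these 5 were called at an adjusted p under 0.05 in limma, with all 9 libraries or without control replicate 1; the background was 0.0174% of 11495 genes and 0.0262% of 11457 genes. By direction, 0.0087% of genes were called higher and 0.0087% lower over 9 libraries, and 0.00873% higher and 0.0175% lower over 8. At an unadjusted p under 0.05, 1 of 5 (Nrp1) passed over 9 libraries and 0 of 5 over 8, where 6.39% and 12.8% of all tested genes did. The exact permutation test adjusted over all genes also gave 0, but its smallest possible p, 0.0159 over 9 libraries and 0.0286 over 8, left no room for a call after adjustment at these shares, so that 0 carries no information. The groups did not overlap for 0 of the 6 genes, where 4.93% of tested genes did not overlap over 9 libraries and 7.02% over 8. Differences were positive for 5 of 6 genes over 9 libraries and for 3 of 6 without control replicate 1. Foxp3 and Ikzf2 changed sign between these 2 fits.

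Genes that feed into Foxp3 gave 0 calls in either fit, out of 18 of 19 tested. This list holds the IL-2 receptor chains, STAT5, the TGF-beta receptors with their SMAD factors, FOXO, RUNX and NR4A factors. Differences were positive for 16 and negative for 2 genes over 9 libraries, with a median of 0.46 beside 0.46 for all genes. Over the 8 libraries without that one there were 9 of each, with a median of -0.0076 beside -0.014. Stat5a, a transducer of the IL-2 signal that sustains Foxp3, read 29.0, 25.2, 22.8 and 24.6 TPM across knockout replicates 1 to 4, against 1.72, 15.6, 22.4, 21.4 and 19.9 TPM across control replicates 1 to 5. The groups did not overlap, although knockout replicate 3 and control replicate 3 differed by little. No overlap was seen for 4.93% of all tested genes over 9 libraries and 7.02% over 8. Stat5a was named for its small unadjusted p in this list, a choice that favours separated groups. Its log2 difference was 0.35 with an adjusted p of 0.329 in limma without control replicate 1. Tgfbr1, a TGF-beta receptor chain, had log2 differences of 0.83 and, without that library, 0.64 (adjusted p 0.298 in limma). Tgfbr2, its partner chain, had 1.24 and 0.43. Nr4a3, a nuclear receptor induced by antigen receptor signals, lay at 3.79 to 4.5 TPM in knockouts and 5.05 to 10.4 TPM in control replicates 2 to 5, with a log2 difference of -0.68 (adjusted p 0.23 in limma) without control replicate 1. Control replicate 1, at 3.02 TPM, lay below all knockouts. Il2ra, the CD25 chain by whose absence the donor cells were sorted, was at 7.28 to 10.95 TPM in knockouts and 6.88 to 10 TPM in control replicates 2 to 5, with 2.16 TPM in control replicate 1. It was singled out after its values were seen.

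Factors that work with Foxp3 or belong to its family also gave 0 calls among 17 tested. Their median was 0.42 over 9 libraries and -0.045 without control replicate 1, again beside 0.46 and -0.014 for all genes. Lef1, a TCF family factor of naive T cells, had a log2 difference of 0.48 without control replicate 1 (adjusted p 0.464 in limma). Gata3, which in the gut is found in many regulatory T cells as well as in Th2 cells, ranged from 74.5 to 151.0 TPM in knockouts and from 102.2 to 151.0 TPM in control replicates 2 to 5. Its log2 difference was -0.28 without control replicate 1 and 0.41 with it. Prdm1, the Blimp-1 gene of effector T cells, had -0.19 and 0.29. Foxp4, a forkhead relative of Foxp3, and Kat5, an acetyltransferase that binds Foxp3 protein, had 0.092 and 0.036 without control replicate 1 and 0.37 and 0.78 with it.

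Suppressive effectors and surface molecules of regulatory T cells gave 0 calls among 24 tested of 27 genes. Differences were positive for 23 over 9 libraries and for 13 over 8, with medians of 0.59 and 0.043, beside 0.46 and -0.014 for all genes. Entpd1, the ectoenzyme CD39, read 38.7, 47.9, 70.0 and 68.0 TPM across knockout replicates 1 to 4, against 1.28, 43.0, 17.3, 31.5 and 22.4 TPM across control replicates 1 to 5. Knockout replicate 1 lay below control replicate 2 and the other knockouts lay above all controls; the log2 difference was 1.71, and 0.99 without control replicate 1 (adjusted p 0.207 in limma). Ebi3, a subunit of the cytokines IL-27 and IL-35, had 1.16 and 0.86 (adjusted p 0.335 without that library), and Cd83, a surface protein of activated lymphocytes and dendritic cells, had 1.63 and 0.87 (adjusted p 0.53). Macrophages and dendritic cells express these 3 genes too. The summed dendritic cell markers were higher in every knockout library than in every control library, at 92.2 to 124.8 TPM against 10.5 to 80.9 TPM. Their mean log2(TPM + 1) overlapped, with knockout replicate 1 (2.45) below control replicates 2 (2.62) and 4 (2.51). The macrophage sums were higher in knockouts on average, but the groups overlapped. Knockout replicate 1 had 35.2 TPM of Cd83, below control replicates 2, 4 and 5. Its macrophage sum was above every control. Its mean log2(TPM + 1) of these markers, 7.45, was below control replicates 2 (7.89) and 4 (7.52) and above control replicate 5 (6.18). Knockout replicate 2 had more Entpd1 than control replicate 2 and slightly more Ebi3 (46.9 against 45.9 TPM). Its macrophage sum was lower than that of control replicate 2, but its mean log2(TPM + 1) of these markers was higher, at 8.22 against 7.89. The part of these cells was not tested. Itgae, the CD103 integrin chain, went the other way without control replicate 1, at 71.5 to 173.4 TPM in knockouts, 503.8 and 471.9 TPM in control replicates 3 and 5, and 108.5 to 153.4 TPM in control replicates 2 and 4 (log2 difference -0.999, adjusted p 0.485 in limma). With all 9 libraries its difference was 0.022. Ctla4, the inhibitory receptor that regulatory T cells use against costimulation, and Il10, their suppressive cytokine, were singled out after their values were seen. Ctla4 lay at 82.1 to 134.9 TPM in knockouts and 82.5 to 124.7 TPM in control replicates 2 to 5, and Il10 at 7.42 to 21.2 TPM and 10.1 to 25.4 TPM.

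Partners of GARP in releasing TGF-beta were tested for 6 of 11 genes, with 0 calls. Their medians were 0.44 over 9 libraries and 0.13 over 8, beside 0.46 and -0.014 for all genes. Nrros, a relative of GARP that holds latent TGF-beta on myeloid cells and microglia, read 63.4, 61.9, 74.3 and 67.6 TPM across knockout replicates 1 to 4, against 2.32, 54.3, 32.6, 46.7 and 34.6 TPM across control replicates 1 to 5. The groups did not overlap, with control replicate 2 the closest. No overlap was seen for 4.93% of all tested genes over 9 libraries and 7.02% over 8. Nrros was named for its small unadjusted p in this list, a choice that favours separated groups. Its log2 difference without control replicate 1 was 0.68 (SE 0.16, adjusted p 0.154 in limma). Thbs1, a matrix protein that activates TGF-beta, and Itgav, an integrin chain that releases it, had 0.48 and 0.24 without that library. The macrophage sums given above overlapped between groups, with 8518 TPM in knockout replicate 2 and 9409 TPM in control replicate 2. The summed dendritic cell markers did not overlap, at 92.2 to 124.8 TPM in knockouts and 10.5 to 80.9 TPM in controls, but their mean log2(TPM + 1) did. The part of macrophages and dendritic cells in these values was not tested.

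Ligands and co-receptors of neuropilin-1 were tested for 7 of 17 genes, with 0 calls; the others did not enter the fit. Their medians were 0.51 over 9 libraries, beside 0.46 for all genes, and 0.36 over 8, beside -0.014. Nrp2, the second neuropilin, read 5.18, 3.56, 6.52 and 10.99 TPM across knockout replicates 1 to 4, against 0.61, 3.35, 1.39, 2.15 and 1.16 TPM across control replicates 1 to 5. Sema4a, a semaphorin reported in mice to act on regulatory T cells through neuropilin-1, read 74.9, 63.9, 57.3 and 81.3 TPM across knockout replicates 1 to 4, against 2.62, 37.3, 53.1, 41.4 and 34.8 TPM across control replicates 1 to 5. Neither gene overlapped between groups, and the same held for Plxnd1, a plexin receptor, at 1.97 to 2.89 TPM against 0.34 to 1.8 TPM. Of all tested genes, 4.93% did not overlap over 9 libraries and 7.02% over 8. Nrp2, Sema4a and Plxnd1 were named for having the smallest unadjusted p of this list in limma, a choice that favours separated groups. Their log2 differences were 1.46, 1.44 and 0.78 over 9 libraries. Without control replicate 1 they were 1.29 (adjusted p 0.17), 0.73 (0.131) and 0.64 (0.229) in limma. Markers of other cells were higher in knockouts too. The macrophage markers had a mean log2(TPM + 1) of 8.39 against 6.51. The stroma markers had a higher knockout mean for 8 of 8 genes without control replicate 1. The summed dendritic cell markers did not overlap between groups, although their mean log2(TPM + 1) did. The part of these other cells in the values of this list was not tested.

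**Figure D4:**
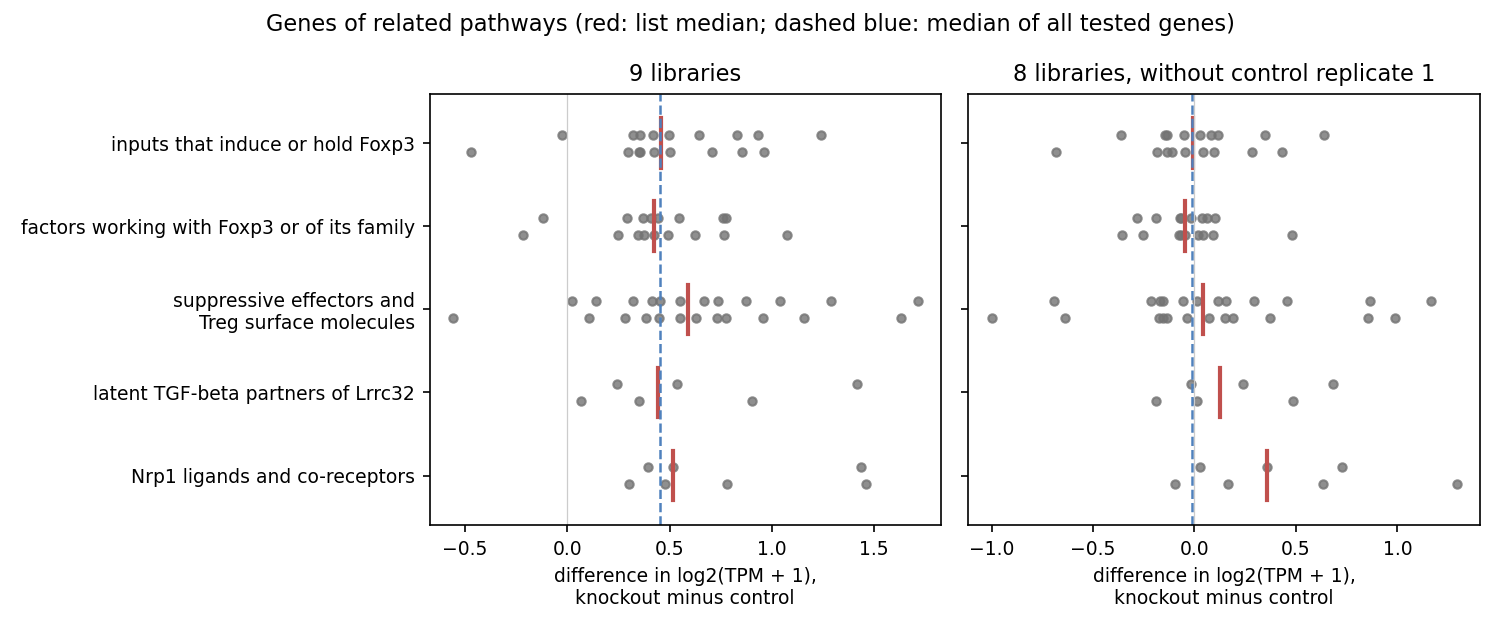
Knockout minus control difference in log2(TPM + 1) for each tested gene of 5 lists (1 point per gene), from 9 libraries (left) and without control replicate 1 (right). Red bars are list medians and the dashed line is the median of all tested genes, 0.46 on the left and -0.014 on the right; the Nrp1 ligand and co-receptor list has the highest median on the right, 0.36.

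The genes whose levels most resembled each member over the 8 libraries without control replicate 1 were listed by Pearson's r of log2(TPM + 1) among 10769 genes, as a description with no test. Nrp1 was matched most closely by Igf1, a growth factor gene of tissue macrophages and stroma (r = 0.995), Fcgrt, the neonatal Fc receptor (r = 0.993), and Man1c1, a mannosidase (r = 0.992). In all, 396 genes had r of 0.9 or more with Nrp1, against 3 for Foxp3, 21 for Ikzf2, 20 for Ikzf4 and 9 for Izumo1r. For Foxp3 the closest were Pars2, a mitochondrial tRNA synthetase gene (r = 0.973), Wdr20 (r = 0.93) and B3galt4 (r = 0.925). Ikzf2 was closest to Asb2, Thnsl1 and Cd69, an early activation and tissue residency marker (r = 0.976, 0.969 and 0.956). Ikzf4 was closest to Magohb, Commd2 and Dipk1b (r = 0.988, 0.98 and 0.972), and Izumo1r to Gnl1, Trpv2 and Tpm4 (r = 0.981, 0.935 and 0.925). None of the other 5 members was among the 3 closest genes of any member. Lrrc32, below the filter, was not compared.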

How the data were processed

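Bulk RNA of sorted colonic CD4+ T cells was measured in 9 libraries, made by a modified SMART-Seq2 protocol with paired reads of 38 cycles, per the labels' protocols. The authors deposited TPM values, scaled to a total of about 1000000 per library, so the depth is unknown. Per the submitters' processing notes, the tools were RSEM 1.2.31, Bowtie2 2.2.9 and Trimmomatic 0.32, and the build was GRCm38. Groups and replicate numbers follow the titles. No 2 columns were identical.

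Differences were fitted with limma 3.58.1 in R 4.3.3 on log2(TPM + 1), with an intensity trend, keeping genes that reached 1 TPM in 4 or more libraries. This scale understates changes of low genes. p-values were adjusted by Benjamini-Hochberg across every gene kept, calls were made at 0.05, and intervals are 95% intervals of that model. Single genes and ratios were also compared by two-sided exact permutation tests over libraries; the smallest p possible is 0.0159 with 4 against 5 and 0.0286 with 4 against 4 libraries. Alternatives were another pseudocount (0.1 or 5), another filter (none, or 5 TPM), 2 scalings, the replicate number as a block, a macrophage covariate and leaving out libraries.

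Members and gene lists were chosen with earlier results of these data known. Beside the 6 members, the text names Cd160, up to 3 genes of each list by smallest unadjusted p in each fit, the most abundant marker of other cells, the 3 genes most like each member, and a few genes whose choice after seeing values is stated. Gene coordinates and start regions are from RefSeq GRCm38.p6; 3 of the 6 members (Foxp3, Izumo1r, Nrp1) matched a start region, and Ikzf2, Ikzf4 and Lrrc32 had none in the table used.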

Additional observations from a re-analysis of the deposited data

Results flagged for a closer look

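Among 26 genes, the members and the pathway genes named with them, each of the 2 groups was searched for a library far from the others, which makes 52 groups. Chance alone marks about 1 in 20 groups, and 2 of the 52 were marked. Ikzf4 was 3.77 TPM in knockout replicate 1, far above the 1.89 to 2.18 TPM of the other 3 knockout libraries. Nr4a3 was 3.79 TPM in knockout replicate 3, below the 4.38 to 4.5 TPM of the other 3.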

How the results depend on the processing

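All values here are knockout minus control in log2(TPM + 1) unless another scale is named. Izumo1r stayed positive under all 30 alternatives (0.16 to 0.88) and Lrrc32 under the 21 that gave it a value (0.23 to 1.56). The 5 tested members were not called under any alternative run for them, with a lowest adjusted p of 0.112, for Nrp1. Lrrc32 had an adjusted p under 1 alternative only, no filter (0.759), and could not be called under the others. Nrp1 was positive under 29 of 30 and negative, -0.31, with the macrophage covariate. Leaving out 1 of the 9 libraries gave 1.02 to 1.87 for Nrp1, -0.014 to 0.78 for Foxp3, -0.17 to 0.15 for Ikzf2 and -0.32 to 0.23 for Ikzf4. Leaving out control replicate 1 and 1 more library gave 0.80 to 1.48 for Nrp1, -0.15 to 0.25 for Foxp3, -0.26 to -0.078 for Ikzf2 and -0.48 to -0.12 for Ikzf4. Foxp3 turned negative without control replicate 1, at -0.014 (the same difference under the exact permutation test), -0.013 with median-of-ratios scaling, -0.021 with a pseudocount of 0.1 and -0.098 with the replicate block. Ikzf2 turned negative with median-of-ratios scaling (-0.34) and quantile scaling (-0.44) over 9 libraries. Without control replicate 1 it was -0.17, also under the exact permutation test and with median-of-ratios scaling, -0.24 with a pseudocount of 0.1, -0.13 with the replicate block and -0.22 with the macrophage covariate. Ikzf4 turned positive with a pseudocount of 0.1 (0.12), the replicate block (0.23) and the macrophage covariate without control replicate 1 (0.25). The cause of these turns was not tested.

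The number of genes called among all tested was 2. It was 1 with a pseudocount of 5 and with quantile scaling, and 0 with no filter, with a filter of 5 TPM and with the replicate block. It was also 0 with the exact permutation test, whose smallest possible p left no room for a call after adjustment, given the share of genes that reached it. Leaving out 1 library gave 0 to 3. Without control replicate 1 it was 4 with median-of-ratios scaling, 5 with a pseudocount of 0.1, 1 with the macrophage covariate, 0 with the exact permutation test and 0 with the replicate block, and leaving out 1 more library gave 0 to 15. No pairing by replicate number was seen: same-numbered deviations from the group means correlated at -0.14 to -0.017 over 9 libraries. Such correlations cannot exclude a pairing. Ikzf2 and Ikzf4 gave no value under the filter of 5 TPM, and Lrrc32 gave none under the scalings, the replicate block, the covariate or the exact test across all genes. With TPM alone the read depth behind low genes such as Lrrc32 is unknown.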
